A study of Ambystoma mexicanum with 12 samples.

Results

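The normally regenerating forelimb blastema of the axolotl (Ambystoma mexicanum) is described here from the 4 DMSO samples among the 12 arrays of the study. The samples were chosen by their labels, and all 4 were used. DMSO is the solvent, given alone here, while the other animals received retinoic acid (RA), which activates the retinoic acid receptors, or LE135, by general knowledge an antagonist of the beta receptor. By the study's design text, limbs given DMSO regenerate normally, those given RA form duplicated proximodistal structures and those given LE135 stay truncated. Juvenile animals of 8.8 cm total length lost a forelimb through the distal zeugopod, the end of the lower arm nearest the hand. They were housed singly and given DMSO, RA or LE135 between days 7 and 14 after amputation, and blastemas with as little of the stump as possible were taken on day 14. Of the 48 animals 16 were given each treatment. A sample combined 1 forelimb from each of 4 animals, so the 4 DMSO samples (called DMSO 1 to DMSO 4) were independent pools. No samples of untreated animals were analysed here, and the age and sex of the animals and the drug doses are not given in the sources used here.

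A blastema forms when wound epidermis closes over the stump and cells of the underlying connective tissue lose their differentiated form, divide and gather beneath it. Muscle is supplied by progenitor cells that re-enter the cycle, cartilage and other connective tissue come mainly from connective tissue cells, and Schwann cells, vessels and leukocytes grow or migrate in. The wound epidermis and the nerve supply keep the cells dividing, and the cells carry positional information, through limb patterning genes, about which part is missing.

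The values were log2 signals of Affymetrix probe sets, so a difference of 1 is a 2-fold difference of signal. Of 20035 probe sets other than controls, 10951 carried a gene symbol, and 9084 (45.3%) carried none. The 8639 named genes were each represented by their strongest probe set, judged by the mean of the 12 arrays. Probe sets differ in how strongly they bind their target, so the order of genes given below is an order of array signal and not of transcript number. Among the 100 strongest probe sets of the DMSO pools, 41 had no gene symbol, as had 661 of the 1000 weakest. Over the named genes the DMSO mean ran from 3.25 to 14.88, with a median of 7.48. The lowest 25% lay under 5.01 and the highest 10% over 10.93. In whole tissue, fewer cells of a type and less RNA per cell cannot be told apart.

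DMSO 4 stood apart from the other 3 pools. Its mean correlation with them over all probe sets was 0.978, and its correlation with the fourth LE135 pool, 0.985, was higher. The same means for DMSO 1 to 3, each of which includes DMSO 4, were 0.989 to 0.990. Among themselves DMSO 1 to 3 correlated at 0.995 to 0.996. The 24 labelling control probe sets, which read RNA added before labelling, averaged 7.42 in DMSO 4 and 7.80 to 8.13 in DMSO 1 to 3, and 6.47 in LE135 4. They were also low in RA 1, at 7.15, an array whose mean correlation with its group was 0.995, and averaged 7.67 to 7.90 in the remaining arrays. Results on levels and on spread are therefore given with DMSO 4 and, where it mattered, without it.

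The strongest signals in the normally regenerating blastema came from the machinery of protein synthesis. EEF1A1, the elongation factor that carries aminoacyl-tRNA to the ribosome, was the highest of all named genes at 14.88 ± 0.02 (SD, n = 4), with 14.87, 14.91, 14.86 and 14.88 in DMSO 1 to 4. RPS2 and RPS12, proteins of the small ribosomal subunit, followed at 14.87 ± 0.01 and 14.85 ± 0.02. Of the 100 genes of highest DMSO mean, 48 were ribosomal proteins and 11 were translation factors. Among the latter, EEF2, which moves the ribosome along the message, stood at 14.58 ± 0.01, and EEF1G and EEF1B2, subunits of the complex that recharges EEF1A1, at 14.47 ± 0.04 and 14.45 ± 0.02. Over the whole list of ribosomal proteins the median was 14.39, and 50 of the 58 measured lay in the highest 10% of all genes. RPL23A and RPL19, which belong to every ribosome, were the lowest of the list at 4.52 ± 0.07 and 7.11 ± 0.09.

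The other leading genes were those that most animal cells use. FTH1, the heavy chain of the iron store ferritin, read 14.84 ± 0.02. COX1, the mitochondrially encoded core subunit of cytochrome c oxidase, read 14.73 ± 0.02. ACTG1, a cytoplasmic actin, and TMSB4X, which binds actin monomers, both read 14.68, with SDs of 0.06 and 0.03. The heat shock cognate chaperone HSPA8 stood at 14.65 ± 0.03 and SLC25A5, which exchanges ADP and ATP across the inner mitochondrial membrane, at 14.50 ± 0.02. Median levels were 12.69 for 31 translation factors, 12.14 for 30 chaperone and unfolded protein response genes, 11.93 for 14 glycolytic genes, 11.74 for 27 genes of the actin and tubulin cytoskeleton, and 11.49 for 38 genes of oxidative phosphorylation. The members in the highest 10% of all genes numbered 28, 19, 8, 16 and 26 of these lists in turn.

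Tissue-restricted genes entered the 100 highest levels from 3 of the lists of tissue markers. The epidermis gave KRT8, a keratin of simple and embryonic epithelia, at 14.46 ± 0.04, and PERP, a desmosome protein, at 13.62 ± 0.11. Connective tissue gave COL3A1 and COL1A1, the chains of type III and type I collagen, at 14.12 ± 0.18 and 13.95 ± 0.35, and VIM, the intermediate filament of mesenchymal cells, at 14.06 ± 0.13. Secretory epidermis gave UMOD, a secreted polymer-forming glycoprotein known in mammals from the kidney tubule, at 13.66 ± 0.36. Leaving out DMSO 4 changed 2 of the 100 genes of highest mean.

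The epidermal list of 27 measured genes had a median of 10.70, with 12 in the highest 10% and 0 in the lowest 25%. JUP and DSP, plakoglobin and desmoplakin of the desmosome, read 13.34 ± 0.07 and 13.22 ± 0.21. The epithelial adhesion proteins EPCAM and CDH1 (E-cadherin) read 13.11 ± 0.12 and 12.28 ± 0.20, and the keratin KRT18, partner of KRT8, 12.87 ± 0.26. TP63, the transcription factor of basal epidermis, was lower at 8.96 ± 0.31. The epithelial transcription factors ELF3 and EHF were the lowest of the list, at 5.60 ± 0.39 and 5.40 ± 0.14. Of the 6 core markers of epidermis, KRT5 was not among the named probe sets.

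In the list of secretory and ion-transporting epidermis the levels were split. MUC2, a gel-forming mucin, read 13.80, 13.73, 13.83 and 12.16 in DMSO 1 to 4. In its other probe sets DMSO 4 lay between -3.08 and 0.49 relative to the mean of DMSO 1 to 3. UPK1B and UPK1A, tetraspanins of the uroplakin plaques that line mammalian urothelium, read 12.68 ± 0.11 and 12.17 ± 0.21, whereas UPK2, which pairs with UPK1A in mammals, read 6.21 ± 1.02. None of the 4 core markers of this cell type (FOXI1, ATP6V1B1, AGR2 and MUC5AC) was among the named probe sets, so the label of this list could not be checked by them.

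The fibroblast list had 18 of 31 members in the highest 10% and a median of 11.33. SPARC, which binds collagen, read 13.34 ± 0.04, and COL1A2, the other chain of type I collagen, 12.91 ± 0.27. The regulators and surface markers by which limb mesenchyme is usually recognised were far lower on this array. PDGFRA, a growth factor receptor of fibroblasts, read 6.06, 6.83, 6.73 and 7.65 in DMSO 1 to 4. PRRX1, the transcription factor of limb mesenchyme and blastema, read 5.26, 5.96, 5.84 and 5.42. THY1, a surface glycoprotein, and FBLN2, a matrix fibulin, stood in the lowest 25% at 4.10 ± 0.11 and 3.92 ± 0.10.

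The 22 genes of blastema matrix and proteases ranged widely around a median of 6.66. TNC, tenascin-C, a matrix glycoprotein laid down in regenerating limbs, read 13.56, 13.74, 13.45 and 12.55. KAZALD1, a secreted protein enriched in axolotl blastema, read 12.48, 13.18, 12.86 and 12.05. CTHRC1, a secreted collagen-repeat protein, held to 12.19 ± 0.16. For the gelatinase MMP2 and its family's inhibitor TIMP1 the pools diverged, as described with the spread below. TIMP3, another inhibitor, and LOXL3, a collagen-crosslinking oxidase, were among the lowest at 4.42 ± 0.06 and 4.31 ± 0.19.

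Proliferation genes were well above the array's midpoint, with a median of 9.57 over 62 cell cycle genes and 1 of them in the lowest 25%. PCNA, the sliding clamp of DNA polymerase, read 12.74 ± 0.12, RRM1, which makes deoxyribonucleotides, 12.56 ± 0.06, CCND1, cyclin D1, 11.74 ± 0.06, and MCM7, of the replicative helicase, 11.65 ± 0.13. MKI67, the nuclear marker of cycling cells, read 10.95, 10.99, 10.81 and 9.81. CDK4 and BIRC5, a cyclin-dependent kinase and the mitotic protein survivin, were the lowest at 5.34 ± 0.35 and 4.39 ± 0.14, and 5 of the 62 in all lay below the median of all named genes.

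Among cells of the blood and vessels, macrophage and neutrophil genes gave the strongest signals, with a median of 8.59 over 22 genes. LYZ (lysozyme) read 13.44 ± 0.10 and CTSB (the lysosomal protease cathepsin B) 12.85 ± 0.11, but many other cells also make cathepsin B. C1QC, a complement chain made by macrophages, read 11.28 ± 0.12. The core markers were lower, with CSF1R, the receptor for macrophage growth factor, at 8.01, 8.59, 7.89 and 6.66, the scavenger receptor MARCO at 7.22 ± 0.33 and the transcription factor SPI1 at 6.20 ± 0.20. Lymphocyte genes had a median of 4.53 over 6, and CD79A, of the B cell receptor, read 4.11 ± 0.06. For 16 endothelial genes the median was 5.74. VWF, the clotting factor stored in endothelium, led at 9.02 ± 0.55, PECAM1 and CDH5, adhesion proteins of endothelial junctions, read 7.13 ± 0.47 and 5.66 ± 0.31, and the receptors KDR and TIE1 read 4.93 ± 0.06 and 3.53 ± 0.03. Pericyte and smooth muscle genes had a median of 6.57 over 14. CALD1 (caldesmon) read 12.02 ± 0.31, TAGLN (transgelin) 10.23 ± 0.37 and the smooth muscle myosin MYH11 7.74 ± 0.35. The smooth muscle actin ACTA2 read 9.31, 10.02, 9.91 and 11.08 in DMSO 1 to 4. In its other probe sets DMSO 4 lay at -1.29 and -2.32 relative to the mean of DMSO 1 to 3. The direction for ACTA2 in DMSO 4 therefore depended on the probe set.

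Erythrocyte genes had a median of 4.95 over 17, with 9 in the lowest 25%. CPOX, a haem synthesis enzyme that other cells also use, read 10.65 ± 0.06, ALAS2, its erythroid-specific first step, 8.33 ± 0.39, RHAG, the Rh-associated ammonium transporter, 6.99 ± 0.20 and SLC4A1, the red cell anion exchanger, 4.19 ± 0.05. The globins HBA1 and HBB were not among the named probe sets. In the list of Schwann cell and nerve, PMP22, a myelin protein that fibroblasts also make, read 8.82 ± 0.23, UCHL1, a neuronal deubiquitinase, 8.18 ± 0.23 and the neurotrophin receptor NGFR 7.90 ± 0.26. SOX10 and S100B, markers of Schwann cells, were not among the named probe sets. Pigment cell genes had a median of 4.26 over 7. KIT, a receptor of melanoblasts and mast cells, and GPR143, a melanosome receptor, read 8.40 ± 0.72 and 8.11 ± 0.10, but the pigment enzymes TYR and DCT read 4.04 ± 0.08 and 3.64 ± 0.11.

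The lists of differentiated skeletal muscle and of cartilage and bone had medians under the 7.48 of all named genes, although some members gave strong signals. Over 55 muscle genes the median was 5.81, and 18 lay in the lowest 25%. The strongest members, ENO3 and DES (muscle enolase and desmin), read 12.30 ± 0.19 and 11.35 ± 0.42, and the more muscle-restricted MYL1, CKM and PVALB are described with the spread below. Over 19 cartilage and bone genes the median was 6.74. COL11A1 and COL2A1, collagens of cartilage fibrils, read 10.92 ± 0.15 and 10.85 ± 0.77, SOX9, the transcription factor of cartilage cells, 6.06 ± 0.85, SP7, that of bone-forming cells, 5.11 ± 0.09, and MATN1, a matrilin of mature cartilage, 3.98 ± 0.12. The 10 muscle progenitor genes had a median of 5.44. MYF5, an early muscle regulator, read 5.09, 5.49, 5.11 and 7.01, and MYOG (myogenin), a later one, 4.46, 4.47, 4.50 and 4.95. DMSO 4 was thus the highest pool for both regulators, while PAX7 and MYOD1 were not among the named probe sets.

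As markers of tissues that a limb does not contain, 16 brain neuron genes had a median of 3.96 and 8 germ cell genes one of 4.01, with 13 and 7 of them in the lowest 25%. Of all 8639 named genes, 704 read under 4. The 9 liver genes had a median of 5.83. Of these, ARG1 (arginase) and APOH (a plasma apolipoprotein) read 9.35 ± 0.29 and 9.06 ± 0.27, and HNF4A, a transcription factor of hepatocytes, 3.51 ± 0.09. The plot of levels by list shows this order from ribosome to brain.

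**Figure D1:**
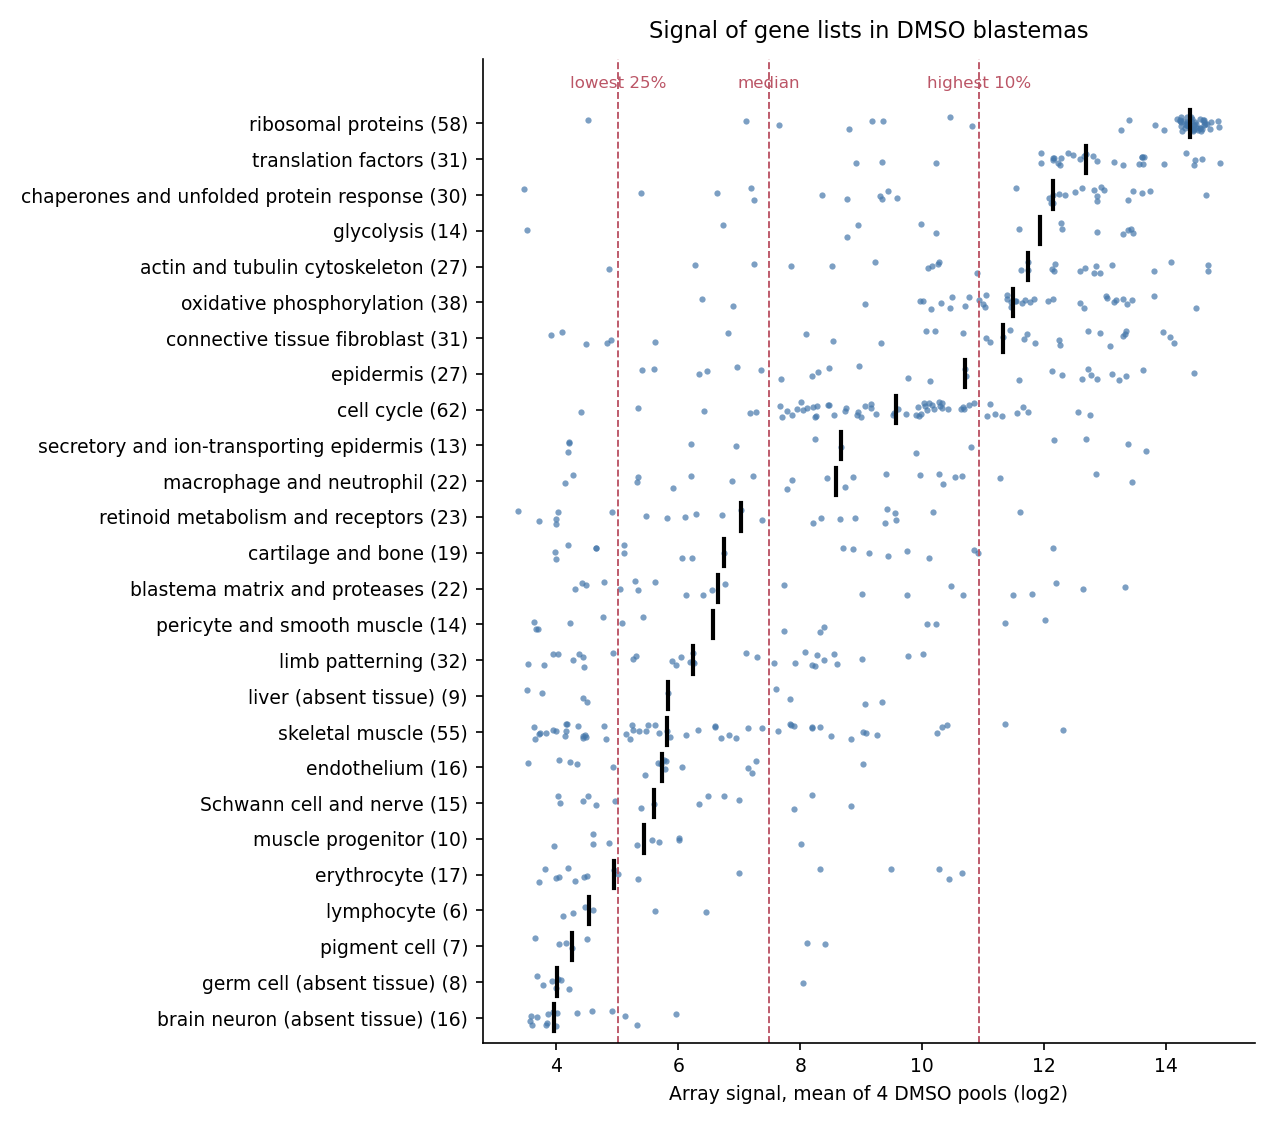
Mean log2 array signal over the 4 DMSO pools (x axis) of the members of 26 gene lists (y axis, number of measured genes in brackets). Each point is a gene, black bars are list medians, and dashed lines mark the limits of the lowest 25% (5.01), the median (7.48) and the highest 10% (10.93) of all 8639 named genes. Ribosomal proteins cluster near 14.39, and brain neuron and germ cell genes lie near 4.

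Limb patterning genes had none of 32 members in the highest 10% and a median of 6.23. The fibroblast growth factor receptor FGFR1 led at 10.01 ± 0.22. MEIS2, a homeobox factor of the upper arm, read 9.94, 9.93, 10.06 and 9.14, and its relative MEIS1 7.05, 7.07, 7.18 and 7.10. The LIM-domain factors of distal limb were of similar rank, with LHX2 at 8.39 ± 0.33, LHX9 at 7.91 ± 0.12 and LMO1 at 7.56 ± 0.27, and the homeobox factor MSX2 at 7.28 ± 0.16. HOXA13, the marker of the hand, read 4.41, 4.32, 4.38 and 4.70, in the lowest 25%. FGF10, the mesenchymal growth factor of the limb bud, read 4.93 ± 0.17, and TBX4, a hindlimb factor, 3.54 ± 0.05. HOXA11, HOXA9, HOXD13, SHH and MSX1 were not among the named probe sets.

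Retinoid genes are of interest in the DMSO pools because the drugs given to the other animals act on this pathway. CRABP2, which carries retinoic acid to its receptors, read 11.71, 12.23, 11.67 and 10.77. DHRS3, which reduces retinaldehyde, read 9.91, 10.72, 10.72 and 9.36, and RDH10, which makes it, 9.44, 9.63, 9.68 and 9.50. Of the receptors, RARG read 8.65 ± 0.17 and RARA 3.72 ± 0.07. ALDH1A2, which makes retinoic acid in the embryo, was among the 15 lowest genes of the array at 3.36 ± 0.05.

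Of the 100 lowest named genes, 93 were in no list, and the brain neuron and liver lists held 1 each. GATA4, a transcription factor of heart and gut, was lowest at 3.25 ± 0.02, followed by GRIA3, a glutamate receptor of neurons, at 3.27 ± 0.02 and MYPN, a sarcomere protein, at 3.29 ± 0.13. Further down the list of 15 were MAP2, a microtubule protein of dendrites (3.39 ± 0.10), SLC2A2, the glucose transporter of liver and pancreas (3.40 ± 0.03), the neuropeptides NTS and GRP (3.41 ± 0.05 and 3.36 ± 0.02) and SYNPR, a synaptic vesicle protein (3.41 ± 0.10). The 100 lowest genes spanned 3.25 to 3.59. Low signal is not proof of absence, as HSPH1, a widespread chaperone, and ALDOC, an aldolase, also lay there at 3.47 ± 0.03 and 3.52 ± 0.10. Without DMSO 4, 96 of the 100 lowest genes were the same.

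The spread between the DMSO pools was small for most genes and depended on DMSO 4. The median SD was 0.145 over the 4 pools and 0.095 over DMSO 1 to 3, against 0.094 over the 4 RA pools and 0.133 over the 4 LE135 pools. An SD over 0.5 was found in 484 genes (5.60%) with all 4 pools and in 82 (0.949%) without DMSO 4, and 61 genes were in both sets. In 476 of the 484, DMSO 4 was the lowest (232) or the highest (244) of the pools. Over all 8639 named genes it was the lowest in 2971 and the highest in 3381, and an extreme DMSO 4 value itself raises the SD. The median SD was 0.028 among the 100 highest levels and 0.023 among ribosomal proteins. These signals lay near the top of the scale, as the highest value of an array was 15.04 to 15.18, and dimmer probe sets of the same genes could vary more. HSPA8 had an SD of 0.03 at 14.65, and 0.54 to 0.69 in 3 probe sets with means of 7.14 to 8.68. Without DMSO 4 the SDs of these 3 were 0.11 to 0.33. For EEF1A1 the SD was 0.02 at 14.88 and 0.34 to 0.49 in 3 probe sets with means of 8.94 to 11.13. Without DMSO 4 the latter SDs were 0.21 to 0.36. Dimmer probe sets of RPL6 and RPS12 varied less, with SDs of 0.21 at 9.31 and 0.12 at 11.95. Small SDs at the top of the scale are therefore not evidence of steady expression. Of the 484, 14 were in the lowest 25% of levels, 253 and 157 in the next higher bands of 25% each and 60 in the highest 25%. Only 42 of the 100 genes of highest SD were also among the 100 found without DMSO 4.

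**Figure D2:**
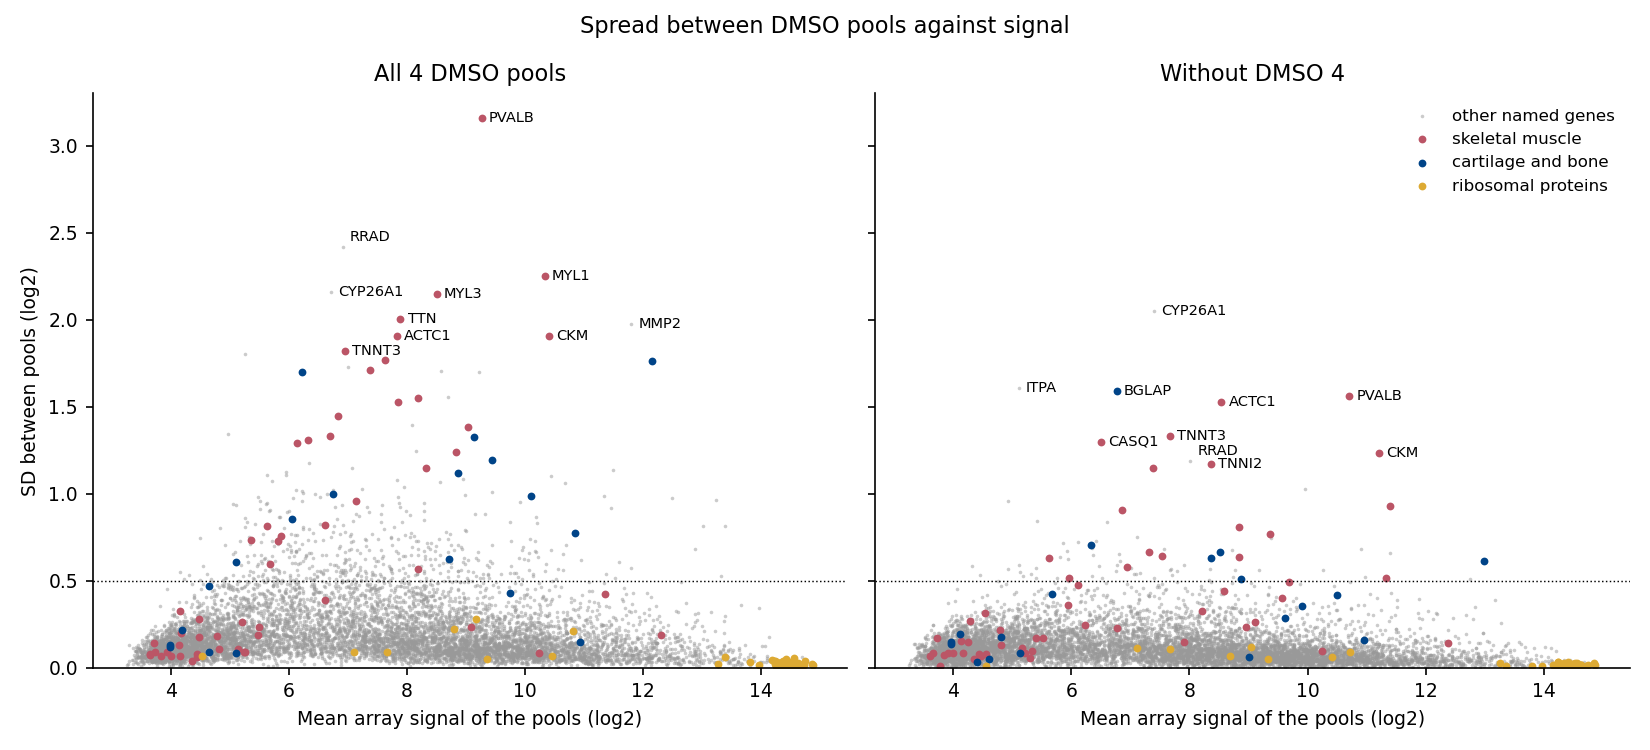
SD of log2 signal between pools (y axis) against mean log2 signal (x axis) for 8639 named genes, over all 4 DMSO pools (left) and over DMSO 1 to 3 (right). Muscle, cartilage and bone, and ribosomal genes are coloured, the 10 highest SDs are named, and the dotted line marks 0.5. 484 genes lie above the line on the left and 82 on the right, and muscle genes are among the highest on both sides.

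Cartilage and bone genes and skeletal muscle genes had the highest median SDs of the 26 lists with all pools, 0.627 over 19 genes and 0.388 over 55. Without DMSO 4 these were 0.287 and 0.247, and the endothelial and liver lists, at 0.285 and 0.268, lay above muscle. Muscle genes made up 19 of the 100 highest SDs with all pools and 20 without DMSO 4, and 26 of the 55 had an SD over 0.5 (18 without DMSO 4). PVALB, the calcium buffer of fast muscle fibres, had the highest SD of all named genes at 3.16, reading 11.73, 11.48, 8.91 and 4.93 in DMSO 1 to 4. Its range over the 4 pools was thus from the highest 10% of all genes to the lowest 25%.

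MYL1, a myosin light chain of fast fibres, read 11.90, 11.95, 10.31 and 7.15. CKM, muscle creatine kinase, read 11.94, 11.90, 9.78 and 7.97. TTN, titin, the spring of the sarcomere, read 9.19, 9.40, 7.91 and 5.05. In all of these DMSO 1 and 2 were high, DMSO 3 was between and DMSO 4 was lowest.

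Over all 55 measured muscle genes DMSO 4 was the lowest pool in 36, and in 29 DMSO 3 was also below DMSO 1 and DMSO 2. Over all 8639 named genes DMSO 4 was the lowest pool in 2971. The share of all named genes with DMSO 3 below DMSO 1 and DMSO 2 was not counted. Of the 26 muscle genes with an SD over 0.5, DMSO 3 was below both DMSO 1 and DMSO 2 in 25. DMSO 4 was the lowest pool in 24 of the 26. Low values in DMSO 3 or DMSO 4 themselves raise the SD by which these genes were chosen. Among them were the troponins TNNT3 (8.44, 8.44, 6.14 and 4.74), TNNI2 (8.97, 9.11, 7.02 and 5.40) and TNNC1 (8.26, 8.52, 7.87 and 4.84), the cardiac and embryonic muscle actin ACTC1 (9.61, 9.22, 6.80 and 5.66), the light chain MYL3 (9.57, 9.96, 9.17 and 5.32) and nebulin (NEB; 7.59, 7.79, 6.55 and 4.87). In CASQ1, the calcium store of the sarcoplasmic reticulum, DMSO 3 and 4 were equally low (7.31, 7.19, 5.01 and 5.02). RRAD, a small GTPase abundant in muscle that was in no list, had the second highest SD and the same order (8.81, 8.59, 6.65 and 3.59). Second probe sets of PVALB and MYL1 showed the low DMSO 4 value too, at -2.96, -3.11 and -2.50 relative to the mean of DMSO 1 to 3, and the fourth probe set of PVALB, dim throughout, stood at -0.12. Other probe sets of ACTC1 stood at -0.77 and -0.24, where the first stood at -2.88. In the latter DMSO 3 was lowest (7.61, 7.75, 6.74 and 7.13). Dimmer probe sets of TTN, with means of 3.65 to 5.56, stood between -0.76 and -0.17, where the first stood at -3.78. Those of NEB, with means of 3.66 to 4.27, stood between -0.25 and 0.18, where the first stood at -2.44.

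The troponins of slow and of fast fibres, as known from mammals, differed in DMSO 3, a split chosen after the values were seen. The slow forms TNNC1, TNNI1 (8.84, 9.23, 8.81 and 5.88) and TNNT1 (8.53, 9.05, 8.18 and 5.62) had SDs of 0.33, 0.23 and 0.44 over DMSO 1 to 3. The fast forms TNNC2 (9.69, 9.91, 8.48 and 7.22), TNNI2 and TNNT3 had SDs of 0.77, 1.17 and 1.33. In DMSO 4 both forms were at their lowest.

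Muscle signal also varied within the drug-treated groups. In all 26 genes RA 3 was the lowest of the RA pools, and in 24 LE135 2 was the lowest of the LE135 pools. PVALB ranged from 7.95 to 12.65 over RA and from 10.30 to 12.05 over LE135, so its groups overlapped. The shares of all named genes lowest in RA 3 and in LE135 2 were not counted. DMSO 4 nevertheless lay below all 8 drug-treated pools in 23 of the 26, which were chosen by an SD that a low DMSO 4 value raises. Over all 55 muscle genes DMSO 4 was the lowest of the 12 pools in 28, against 1424 of all 8639 named genes. The mean deviation of the 55 muscle genes from their own average over 12 arrays was 0.19, 0.29, -0.39 and -1.17 in DMSO 1 to 4, and 0 of the 55 differed among the treatments in the F test given at the end, where 3.01% of all named genes did, so a count of 0 is close to that background. LE135 4, which correlated with DMSO 4, did not share this pattern, as its difference from LE135 1 to 3 had a median of 0.06 over the 26 genes and lay between -0.51 and 0.90.

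**Figure D3:**
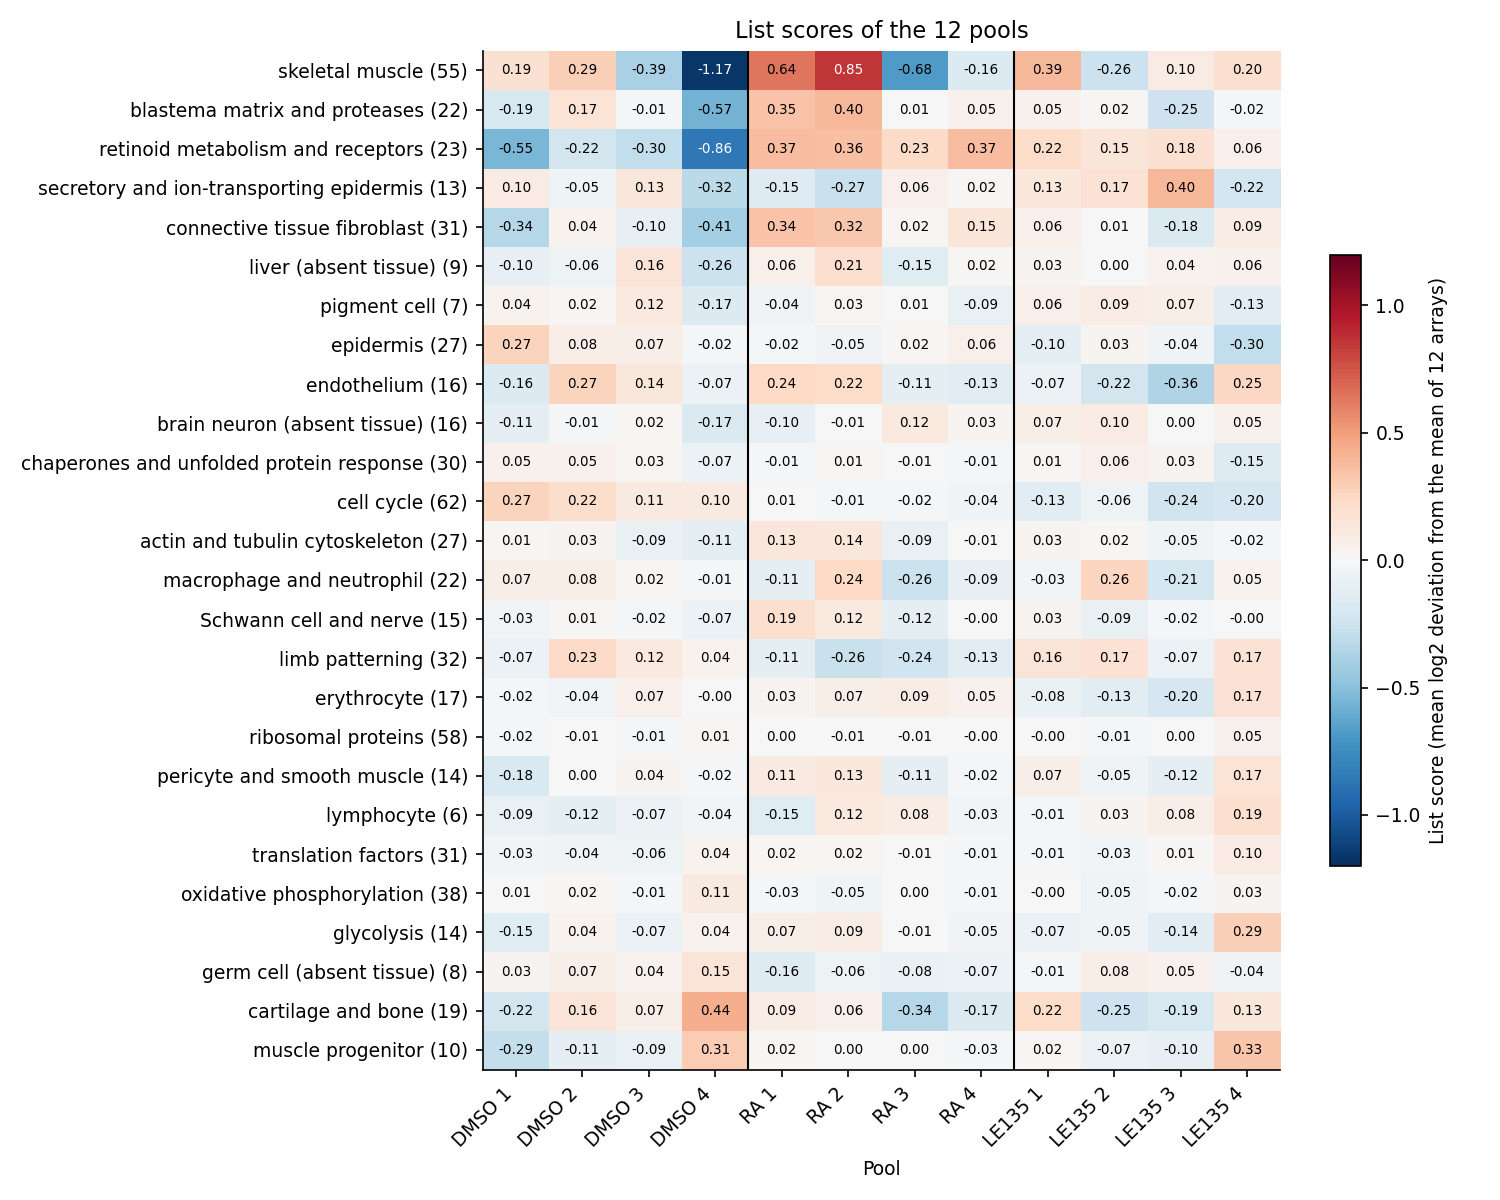
List scores of the 12 pools. Each cell gives the mean over a list's measured members (number in brackets) of the log2 signal minus the gene's mean over the 12 arrays, with red above and blue below 0. Lists are ordered by DMSO 4 minus DMSO 1 to 3. The skeletal muscle score is lowest in DMSO 4 at -1.17 and highest in RA 2 at 0.85, and DMSO 4 has the highest cartilage and bone score at 0.44.

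Most of the variable cartilage genes were highest, not lowest, in DMSO 4. Over all 19 measured cartilage and bone genes DMSO 4 was the highest pool in 11 and the lowest in 5. Over all 8639 named genes it was the highest in 3381 and the lowest in 2971. Of the 11 cartilage and bone genes with an SD over 0.5, DMSO 4 was the highest pool in 8. In 7 it lay above all 8 drug-treated pools. An extreme DMSO 4 value itself raises the SD by which these genes were chosen. Over all 19 measured genes DMSO 4 was the highest of the 12 pools in 8, against 1740 of all 8639 named genes. COL9A1, COL9A2 and COL9A3 encode the chains of type IX collagen, which coats cartilage fibrils. COL9A3 read 7.84, 8.54, 9.17 and 10.94, COL9A1 8.49, 8.68, 9.46 and 11.10, and COL9A2 7.66, 8.54, 8.88 and 10.35. All 3 were lowest in DMSO 1 and highest in DMSO 4. COL2A1 read 10.05, 10.58, 10.88 and 11.89, MATN4, a matrilin, 9.29, 9.77, 9.81 and 11.55, and SOX9 5.20, 6.02, 5.78 and 7.23. The mean deviation of the 19 genes from their average was -0.22, 0.16, 0.07 and 0.44. LE135 4 did not share the high type IX collagen, at 0.12, 0.03 and 0.04 above the mean of LE135 1 to 3 for COL9A1, COL9A2 and COL9A3.

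Of the 11 cartilage and bone genes with an SD over 0.5, the 3 that were lowest in DMSO 4 were CTSK, BGLAP and ACAN. CTSK, the bone-resorbing protease of osteoclasts, which fibroblasts also make, read 13.14, 13.51, 12.31 and 9.60. BGLAP, osteocalcin of bone matrix, read 6.76, 8.36, 5.18 and 4.57 and kept a high SD without DMSO 4, 1.59. ACAN, the cartilage proteoglycan aggrecan, read 8.98, 9.08, 8.98 and 7.76. A second probe set of CTSK lay 0.12 above the mean of DMSO 1 to 3 in DMSO 4, where the first lay at -3.38. A second of ACAN lay 2.25 above, where the first lay at -1.25. The direction for CTSK and ACAN in DMSO 4 therefore depended on the probe set.

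Several matrix and protease genes were also lowest in DMSO 4 by the probe set used. MMP2 read 12.70, 13.30, 12.28 and 8.90, a mean of 11.79. Its second probe set had the higher DMSO mean, 11.85 ± 0.33, and DMSO 4 was its highest DMSO pool at 12.09. The direction for MMP2 in DMSO 4 therefore depended on the probe set. TIMP1 read 12.06, 12.36, 11.71 and 9.83, and FN1, fibronectin, 10.76, 11.56, 11.21 and 9.16. FBN1, fibrillin of elastic microfibrils, read 9.62, 9.99, 9.67 and 8.03. For the first probe sets of these genes DMSO 4 lay apart, and the SDs of MMP2, TIMP1, FN1 and FBN1 without it were 0.51, 0.33, 0.40 and 0.20. MBP, myelin basic protein, showed the same pattern with 8.08, 7.88, 7.59 and 4.42, as did CHGA, chromogranin A of neuroendocrine granules, with 9.75, 9.27, 9.34 and 6.37.

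**Figure D4:**
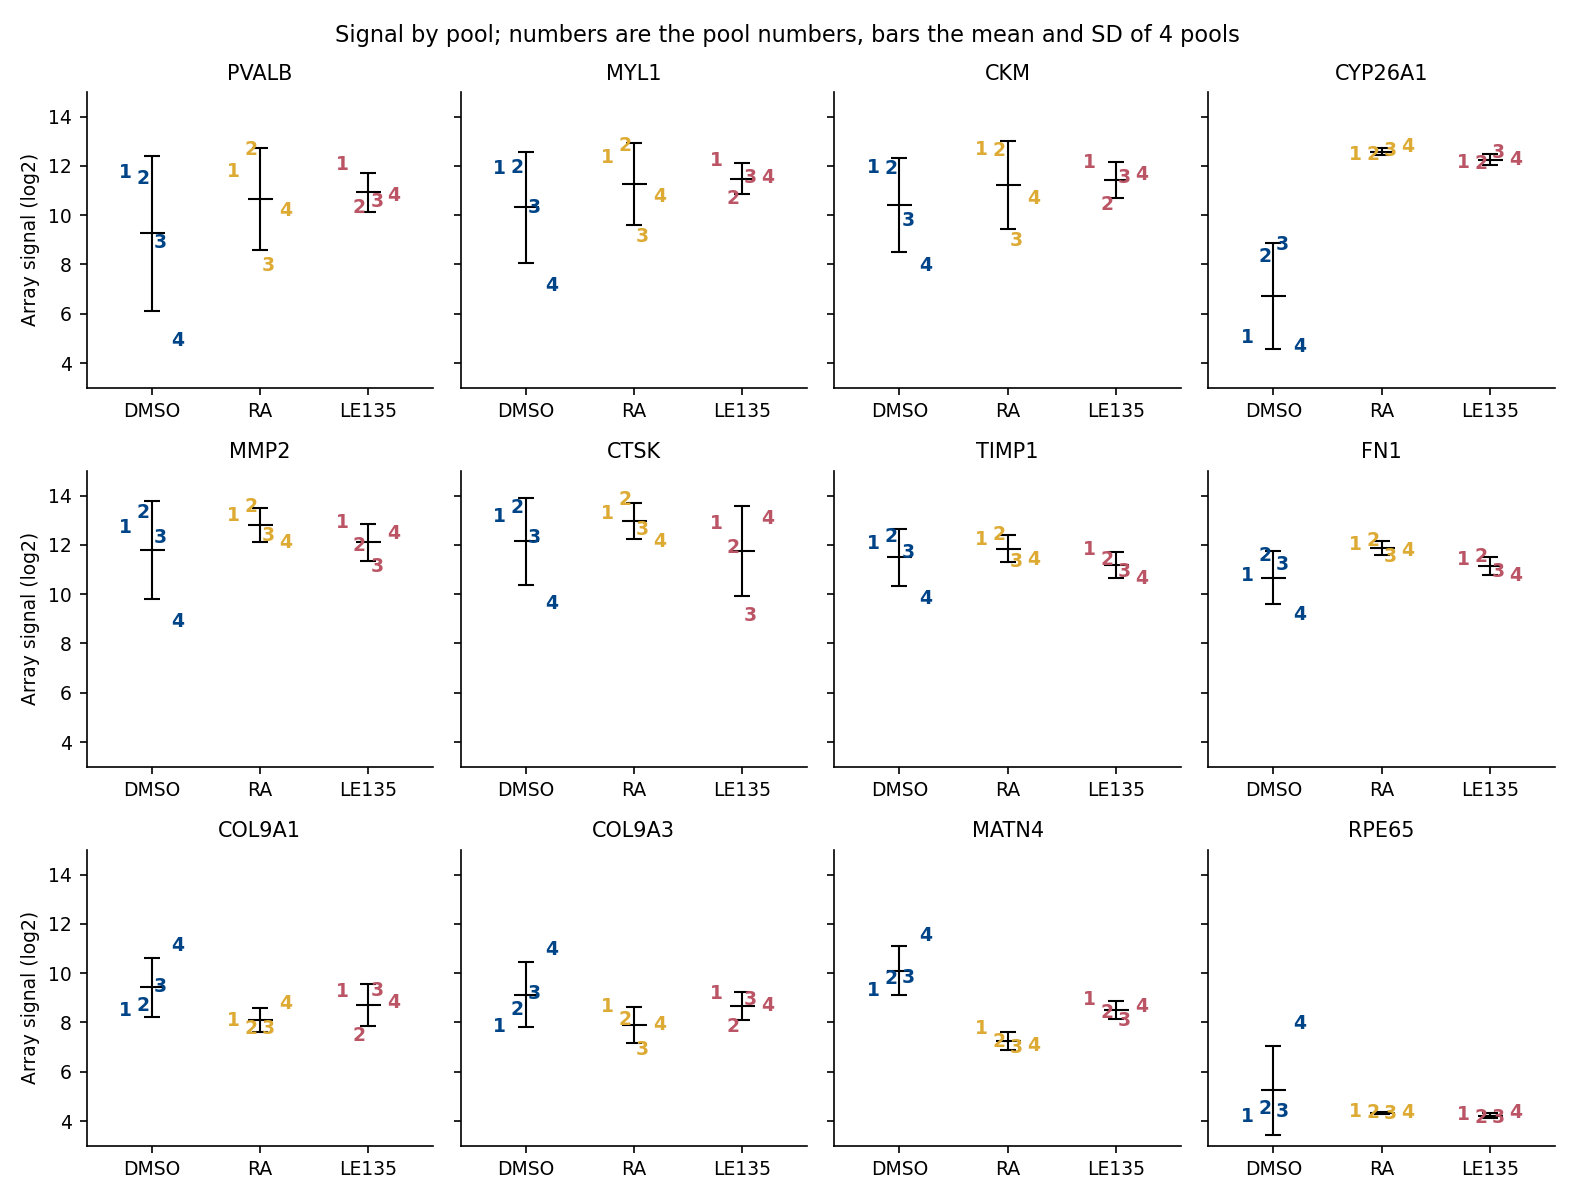
Log2 array signal (y axis) of 12 genes in the 12 pools by treatment (x axis). Digits mark the pool number, and bars show the mean and SD of the 4 pools of a treatment. DMSO 4 is lowest of all 12 pools for PVALB, MYL1, CKM, MMP2, TIMP1 and FN1 and highest for COL9A1, COL9A3, MATN4 and RPE65. A second probe set of MMP2, not shown, is not low in DMSO 4. CYP26A1 separates DMSO 1 and 4 (5.05 and 4.66) from DMSO 2 and 3 (8.31 and 8.82), all below the drug-treated pools.

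Genes with the highest signal in DMSO 4 came from several tissues. RPE65, the isomerase that regenerates the visual chromophore in the pigment epithelium of the eye, read 4.18, 4.51, 4.37 and 7.95, while the 8 drug-treated pools lay between 4.12 and 4.40. Its second probe set gave 4.28, 4.09, 4.26 and 7.61. RLBP1, which binds retinaldehyde in the retina, averaged 6.33 ± 1.17, with DMSO 4 lying 2.23 above the mean of DMSO 1 to 3. Both visual cycle genes were thus high in this pool alone of the DMSO group. FOS, an immediate early transcription factor, read 7.06, 7.80, 7.81 and 9.95, TUBB3, a neuronal tubulin, 6.31, 6.29, 6.10 and 8.28, and MYL9, a smooth muscle light chain, 7.11, 7.54, 7.44 and 9.29. ISCA2, for iron-sulfur cluster assembly, PRDX2, a peroxidase abundant in red cells, and CXCL12, a chemokine of stromal cells, lay 2.14, 2.00 and 1.88 above the mean of DMSO 1 to 3. For these LE135 4 lay likewise above its own group, by 1.70, 2.03 and 1.85, whereas for RPE65 it differed by 0.18.

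Some genes varied among DMSO 1 to 3 as well. CYP26A1, which oxidizes and so inactivates retinoic acid, had the highest SD over DMSO 1 to 3, 2.05, and read 5.05, 8.31, 8.82 and 4.66. FGF8, a growth factor that keeps blastema cells dividing, was split in the same way at 5.68, 7.31, 6.81 and 5.14. In both genes DMSO 2 and 3 were high and DMSO 1 and 4 low. CYP26B1, a second retinoic acid oxidase, read 6.84, 7.62, 7.49 and 6.14, and SALL4, a zinc finger factor of stem and limb cells, 8.87, 9.80, 9.37 and 7.97. ITPA, which clears abnormal purine nucleotides, was high in DMSO 2 alone (4.30, 6.95, 4.06 and 4.52), while the 8 drug-treated pools lay between 6.33 and 7.97. PRG3, an eosinophil granule protein, was high in DMSO 3 alone (4.30, 4.44, 6.03 and 4.56). ADIPOQ, the fat cell hormone adiponectin, followed the muscle order with 5.87, 5.96, 4.45 and 4.16.

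DMSO 4 lay more than 1 below the mean of DMSO 1 to 3 in 206 genes and more than 1 above it in 207. LE135 4 deviated from the mean of LE135 1 to 3 to the same side in 166 and 192 of them, and by more than 1 in 37 and 53. The share of all named genes on each side in LE135 4 was not counted. Over 8639 genes the deviations of DMSO 4 and LE135 4 had a Pearson correlation of 0.583. Genes share the array and its processing, so this describes 2 arrays and is no test. Genes with other probe sets of mean signal 5 or more allow a check within the arrays. Of 83 such probe sets of genes that were low in DMSO 4, 70 lay on the low side too, 54 of them by more than 0.5, and 2 lay on the other side by more than 0.5. Of 28 of genes that were high, 21 lay on the high side, 20 of them by more than 0.5, and 3 lay on the other side by more than 0.5.

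The EEF1A1 probe sets set DMSO 4 and LE135 4 apart, whereas the labelling controls were low in RA 1 too. Genes of large proteins were mostly low in DMSO 4, and for them LE135 4 was compared only with its own group. The array carries probe sets along EEF1A1 from its 3′ to its 5′ end. The 3′ minus 5′ difference in 1 series was 2.48, 2.22, 2.26 and 1.77 in DMSO 1 to 4 and 1.73 in LE135 4, and in the other series 0.52, 0.50, 0.44, 0.30 and 0.29. In both series these arrays had the smallest of the 12 differences. In the second series the 3′ probe set read 14.86 to 14.91 on all arrays, near the top of the scale, so its differences mostly follow the 5′ probe set and add little to the first. A list of genes of very large proteins was made after the values had been seen. It shared members with the fibroblast, cell cycle and epidermal lists, but none of its measured members was in the muscle list. These genes were mostly low in DMSO 4. Of 104 measured, DMSO 4 was the lowest pool in 77 and the highest in 10, against 2971 and 3381 of all 8639 named genes. Their median difference from DMSO 1 to 3 was -0.55 (0.01 over all genes). In 32 of the 104 the SD was over 0.5, and in 1 without DMSO 4, against 484 and 82 of all named genes. EP300, a histone acetyltransferase chosen after its values were seen, read 6.04, 6.47, 5.99 and 3.99, and the listed mucin MUC2 lay at -1.63. Other probe sets of MUC2 lay at -3.08, -0.12, 0.49 and 0.16. LE135 4 was below the mean of LE135 1 to 3 in 79 of the 104, with a median difference of -0.20. This count is looser than that of the lowest pool, and its share over all named genes was not computed. The part of the labelling controls, the EEF1A1 differences and the large proteins in the values of DMSO 4 was not tested.

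**Figure D5:**
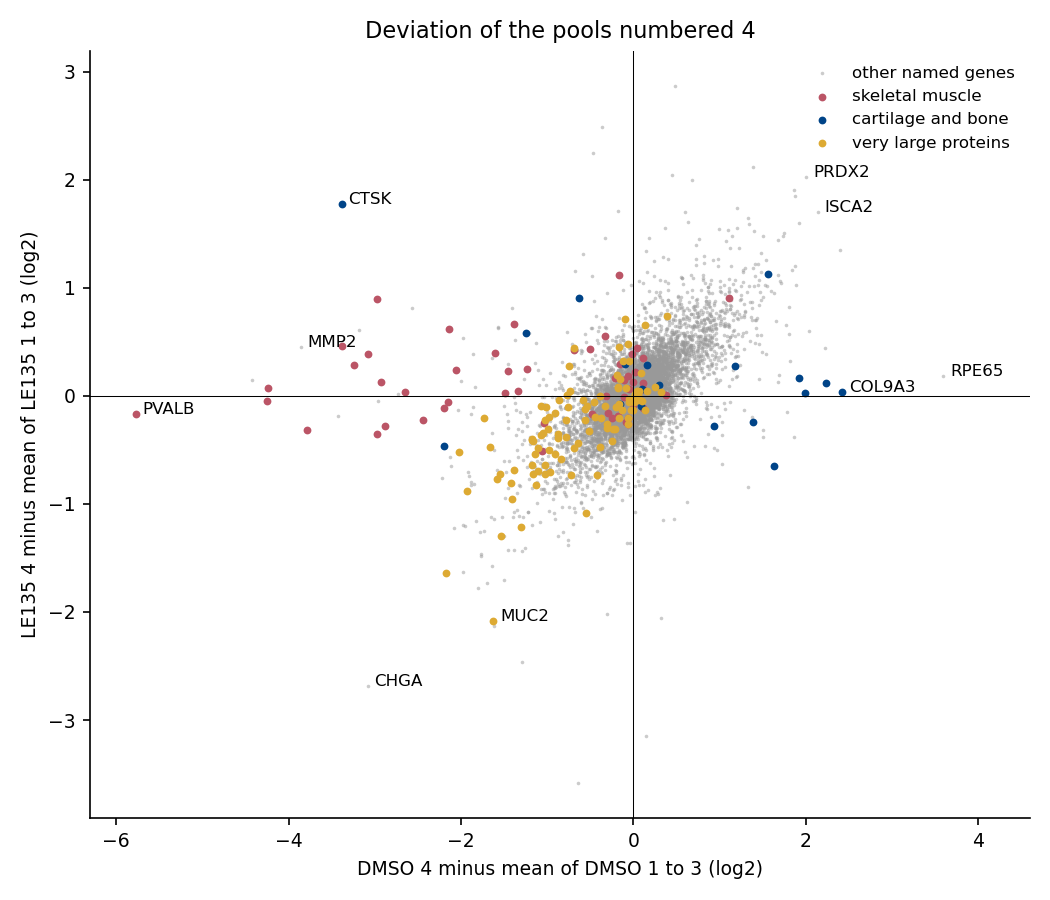
Difference of DMSO 4 from the mean of DMSO 1 to 3 (x axis, log2) against that of LE135 4 from the mean of LE135 1 to 3 (y axis, log2) for 8639 named genes. Genes of very large proteins lie to the lower left, while muscle genes such as PVALB (-5.77 and -0.17) and type IX collagen such as COL9A3 (2.42 and 0.04) spread along the x axis.

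The comparison with the drug-treated pools asks which of the strong and the variable genes of the normal blastema differed under either drug. A moderated F test in limma over all 12 arrays, adjusted over 20035 probe sets, found 537 that differed among the treatments (2.68%), and 260 of the 8639 named genes (3.01%). Of the 100 genes of highest DMSO level, 2 passed. S100A13, a small calcium-binding protein named after its values were seen, read 14.01, 13.87, 13.97 and 14.17 in DMSO and between 13.54 and 13.71 in the other 8 pools (adjusted p = 0.016). HSP90AB1, a cytosolic chaperone, read 13.55, 13.61, 13.59 and 13.64 in DMSO, a mean of 13.60, and means of 13.82 and 13.81 in RA and LE135 (adjusted p = 0.043). Its other 2 probe sets, of similar signal, did not pass, at 13.68 in DMSO against 13.70 and 13.78 (adjusted p = 0.67) and at 13.35 against 13.41 and 13.51 (adjusted p = 0.62). The one at 13.68 had the higher DMSO mean. The passing one was used for its mean over all 12 arrays, so the drug-treated pools took part in choosing it. The count was 0 without DMSO 1 and 1 or 2 without any other single pool. Of the 100 lowest genes 0 passed, and 2 had an unadjusted p under 0.05 in the same test. Of all 8639 named genes 1386 had such a p, a larger share. The 100 lowest genes lay between 3.25 and 3.59, near the bottom of the scale, which limits what their count can show.

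Of the 100 genes of highest SD over the DMSO pools 2 passed, and the SD itself enters the error of the test. CYP26A1 was higher in every RA and LE135 pool, at means of 12.58 and 12.26 (adjusted p = 0.0042). MATN4 was lower, at 7.25 and 8.51 against 10.11 in DMSO (adjusted p = 0.010), and its highest drug-treated pool, 8.93, lay under the lowest DMSO pool, 9.29. In the cartilage and bone list 3 of 19 genes passed, without a common direction. ACAN, not among the 100 highest SDs, was higher in RA and LE135, at 11.36 and 11.32 against 8.70 (adjusted p = 0.00077). Its second probe set did not pass (adjusted p = 0.96). The lists and their members were chosen with earlier results of these data known, so counts by list are a description and no test. By list, 15 of 62 cell cycle genes, 9 of 32 limb patterning genes and 8 of 23 retinoid genes passed, while 0 of 58 ribosomal, 31 translation, 38 oxidative phosphorylation and 55 muscle genes did. For adjusted p, counts of 0 in lists of this size are close to the 3.01% of all named genes. At an unadjusted p under 0.05 in the same F test these last counts were 0, 0, 4 and 5, against 1386 of all 8639 named genes. The unadjusted counts of 0 for ribosomal and translation genes thus lay under the share of all named genes. Many of these signals lay near the top of the scale, with list medians of 14.39 and 12.69. The counts therefore cannot show that these genes were unaffected by the drugs. Among limb patterning genes HOXA13, low in DMSO at 4.45, read 3.67 in RA and 4.92 in LE135 (adjusted p = 0.036). EHF, the lowest of the epidermal list in DMSO at 5.40, read 6.77 in RA and 7.57 in LE135 (adjusted p = 0.013). TP63 went the other way in the epidermis, from 8.96 to 8.64 and 8.15 (adjusted p = 0.038). Its second probe set, at 7.61 in DMSO against 7.31 and 6.90, did not pass the same F test (adjusted p = 0.32).

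Several of these calls depended on single pools. Without DMSO 1 the adjusted p of S100A13 was 0.053 and that of HSP90AB1 0.135, in the same F test. HSP90AB1 passed when DMSO 4 or LE135 4 was left out, but not when any of the other 10 pools was. HOXA13 passed without DMSO 4, LE135 1, LE135 2 or LE135 4, and otherwise reached an adjusted p of up to 0.107, without RA 2. TP63 passed without DMSO 3, DMSO 4 or LE135 2, and otherwise reached up to 0.102, without LE135 1. CYP26A1, MATN4 and EHF passed whichever pool was left out, with adjusted p up to 0.013, 0.032 and 0.045.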

How the data were processed

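Total RNA of 12 pools was hybridised to 1 Affymetrix array each. The deposited log2 values, with 1 column per pool, are RMA values per the submitters' processing notes (background correction, quantile normalization, probe summary); the RMA version is not given in the sources used here. All columns matched a sample title. The 45 control probe sets were left out. Gene symbols came from the platform annotation, which can be old, and all 8639 have an entry in RefSeq's gene table for the axolotl. A gene with several probe sets was read from its strongest, by the mean of the 12 arrays.

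Means and SDs over the 4 DMSO pools were computed in pandas 2.3.3 (Python 3.11.15). A moderated F test compared the 3 treatments in limma 3.58.1 (R 4.3.3), with Benjamini-Hochberg adjustment over 20035 probe sets at 0.05; the test was tried on simulated data. "Passed" refers to it. A list score is the mean deviation of a list's members from their averages over 12 arrays. Alternatives were the sample number as a block, another prior, centring, renewed quantile normalization, a filter at a mean of 5, plain ANOVA, other choices of probe set, and leaving out each pool.

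Named were the 30 highest and 15 lowest levels, the 30 highest SDs (20 without DMSO 4), the 15 genes farthest below and above in DMSO 4, the extremes of 26 lists, core markers and fixed limb and retinoid genes, as far as space allowed. The members and lists were chosen with earlier results of these data known. Precision is limited by the 4 arrays per treatment.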

Additional observations from a re-analysis of the deposited data

Results flagged for a closer look

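Within the 4 DMSO pools, a value was singled out where its gap to the nearest other pool took up most of the group's range (Dixon's test at 95%), which chance does in about 1 in 20 groups. Over all 8639 named genes this held for 777 (8.99%), of which 622 were apart in DMSO 4 and 63, 48 and 44 in DMSO 1, 2 and 3. The mean correlation of DMSO 4 with the other pools, 0.978, was one such value, although the means of the other pools include DMSO 4 and so are not independent of it.

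Of the 161 genes named, DMSO 4 lay apart below the others in ACAN (7.76), CCND1 (11.65), CHGA (6.37), DSP (12.91), GRP (3.33), MBP (4.42), MEIS2 (9.14), MKI67 (9.81), MUC2 (12.16) and TNNI1 (5.88). It lay apart above the others in CXCL12 (7.01), ISCA2 (7.32), MYOG (4.95), PRDX2 (10.94), RPE65 (7.95) and TUBB3 (8.28). DMSO 1 lay apart below in CTHRC1 (11.95) and PECAM1 (6.44). DMSO 2 lay apart above in ITPA (6.95) and DMSO 3 in PRG3 (6.03). PVALB and MYL1, which vary more than any of these, were not singled out, and in both DMSO 3 lay between DMSO 4 and the others. None of the 26 list scores was singled out.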

How the results depend on the processing

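The 537 probe sets that differed among treatments became 465 to 603 under another prior, centred arrays, renewed quantile normalization, a filter at a mean of 5 or the replicate block, 310 under a plain ANOVA, and 261 (without RA 1) to 700 (without DMSO 4) when single pools were left out. Leaving out DMSO 4 and LE135 4 together, chosen after seeing the data, gave 1478. The 2 calls among the 100 highest levels became 1 under the replicate block or centring, 4 under plain ANOVA and 0 to 2 when single pools were left out. The 2 calls among the 100 highest SDs became 4 without DMSO 4 and LE135 4. The 484 genes of SD over 0.5 became 431 to 481 under other probe set choices and scalings, and 82 (without DMSO 4) to 704 (without DMSO 3) with a pool left out, and the median SD 0.095 to 0.150. The cause of these shifts was not tested. The 100 highest levels shared 68 genes with those found from the mean of all probe sets of a gene, the 100 lowest 100 and the 100 highest SDs 81.

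The treatments share the pool numbers 1 to 4. As a block they gave 603 calls, and HSP90AB1 and TP63 had adjusted p of 0.071 and 0.060. Deviations from group means of same-numbered pools correlated at 0.13 to 0.61 between DMSO and LE135, 0.04 to 0.18 between DMSO and RA and -0.17 to 0.26 between RA and LE135. Between DMSO and LE135 the 0.61 was that of the pools numbered 4, and the other numbers gave 0.13 to 0.32. Pools of different numbers were not correlated, so these values cannot show whether the numbers mark pairs. The labels give the numbers no shared source, so the fit without the block was kept. Dim probe sets limit what low signals can show, and 9084 probe sets without a name were not described.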
